A study of Mus musculus with 8 samples.

Results

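The mouse collagen genes were followed through the cells of the adult liver. Every gene of the count table with a symbol of the form Col, a type number, the letter a and a chain number was taken, and a minimum of 300 counts over all cells was set. Of 44 such genes, 40 passed, out of 46517 genes in the table. The genes just inside the minimum were *Col26a1* with 533 counts and *Col6a4* with 555 counts. Just outside were *Col11a1* with 290 counts and *Col10a1* with 274 counts, and *Col2a1* and *Col9a1* held 32 and 8 counts. The minimum was set on the sum over all cells, so a sparse gene could pass through the 1 class in which it was high. Mesenchymal cells held 98.9% of the counts of *Col6a4* and 99.2% of those of *Col24a1*. Counts and medians over the genes below are therefore descriptions.

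The data were 3491 single cells from livers of adult male and female mice, profiled by Smart-seq2, a plate method that sequences complementary DNA along the whole transcript and has no molecular tags. The mice were C57BL6/J or heterozygous for reporter alleles: Pdgfrb-GFP and Pdgfra-H2bGFP, which light up mesenchymal cells, Cspg4-dsRED and Acta2-GFP, which light up mural cells, and Cldn5-GFP, which lights up endothelium. Some carried combinations of these alleles, and the labels do not tie a cell to a mouse or an allele. Mesenchymal cells were sorted by reporter or PDGFRα antibody, endothelial cells by CD31, VE-Cadherin or Cldn5-GFP, cholangiocytes by EPCAM and macrophages by CD68, while hepatocytes were taken unselected. The groups were therefore enriched on different markers, and cell numbers say nothing of tissue abundance. There were 8 samples: the mesenchymal, endothelial, immune and epithelial classes, each with 1 pool of male cells (998, 655, 255 and 358 cells) and 1 pool of female cells (339, 451, 396 and 39 cells). Sex and pool cannot be told apart, since each sex was 1 pool. In the main fits, p-values measure only the spread between the male and female sums of the same class or cluster. The female mesenchymal cells all came from 1 plate.

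Collagens are secreted or membrane proteins whose chains wind around one another into trimers, so a chain is useful to a cell only with its partners. The fibrillar types I, III and V form the cables of connective tissue, type IV forms the sheet of basement membranes, type VI forms beaded filaments close to cells, and the FACIT types decorate fibrils. Types XV and XVIII, the multiplexins, sit in basement membrane zones, and types XIII, XVII, XXIII and XXV span the cell membrane. In liver, stellate cells in the space around the sinusoids and fibroblasts of the portal tracts are known as the sources of scar collagen, while sinusoidal endothelium lies on an incomplete basement membrane.

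Levels are given as the counts of a gene for every 1000000 counts on genes (CPM) in the summed cells of a pool, with the spike-in rows left out. The sums held between 6399550 and 218419420 counts per class and pool, and single cells held from 47063 to 1128421 counts. The class labels were checked against their defining markers. Over both pools, *Pdgfrb* stood at 1048 CPM in mesenchymal cells and at no more than 10.4 CPM in the other classes, *Pecam1* at 1359 CPM in endothelial cells against 126 CPM or less elsewhere, and *Ptprc* at 595 CPM in immune cells against 2.58 CPM or less. Albumin transcript stood at 3598 CPM even in the cholangiocyte cluster p2, where the defining markers *Krt19* and *Epcam* stood at 493 and 1004 CPM. The mesenchymal transcript *Dcn* reached 90.1 CPM in the epithelial class, against 3903 CPM in mesenchymal cells. Clusters are those the study defined on these cells from their expression, so a difference between clusters is not independent of the genes that shaped them.

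Promoter sequence is shown for the genes that carry the results below: *Col1a2* and *Col3a1* for the fibroblast pattern, *Col13a1* for the endothelium and *Col8a1* for the portal vein. Each is the 250 bases before the RefSeq start site, read 5′ to 3′ on the strand of the gene in build GRCm38.p6. Capitals mark the letters CCAAT, the letters GGGCGG of the GC box (which read CCGCCC from the other strand) or the letters TATAAA. *Col1a2* lies on the plus strand at chr6:4504814-4541544, *Col3a1* on the plus strand at chr1:45311538-45349706, *Col13a1* on the minus strand at chr10:61838236-61979108 and *Col8a1* on the minus strand at chr16:57624258-57754737. The windows end at the base before the RefSeq start site, and that of *Col1a2* lies inside the longer span given for the gene by GENCODE vM21, the source of the gene coordinates.
Col1a2 chr6:4505368-4505617: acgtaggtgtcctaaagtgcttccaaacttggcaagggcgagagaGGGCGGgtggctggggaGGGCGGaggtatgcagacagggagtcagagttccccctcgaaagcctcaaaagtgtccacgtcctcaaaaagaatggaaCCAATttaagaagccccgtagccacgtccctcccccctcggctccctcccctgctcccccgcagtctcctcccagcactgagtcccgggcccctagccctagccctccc
Col3a1 chr1:45311288-45311537: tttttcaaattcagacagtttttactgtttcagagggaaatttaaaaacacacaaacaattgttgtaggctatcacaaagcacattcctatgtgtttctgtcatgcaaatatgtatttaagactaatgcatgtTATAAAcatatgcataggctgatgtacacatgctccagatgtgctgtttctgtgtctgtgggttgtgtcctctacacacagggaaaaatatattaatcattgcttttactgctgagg
Col13a1 chr10:61979109-61979358: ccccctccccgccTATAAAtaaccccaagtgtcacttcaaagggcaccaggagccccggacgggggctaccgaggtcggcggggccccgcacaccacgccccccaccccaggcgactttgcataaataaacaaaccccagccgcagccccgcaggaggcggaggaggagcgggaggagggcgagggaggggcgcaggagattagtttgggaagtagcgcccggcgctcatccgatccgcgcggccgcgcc
Col8a1 chr16:57754738-57754987: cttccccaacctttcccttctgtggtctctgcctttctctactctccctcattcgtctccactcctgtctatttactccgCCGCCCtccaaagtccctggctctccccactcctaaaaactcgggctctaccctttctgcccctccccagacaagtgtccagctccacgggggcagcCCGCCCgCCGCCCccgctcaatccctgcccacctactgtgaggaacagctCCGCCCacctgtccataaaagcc

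Windows were found for 32 of the 40 genes. Those without one were *Col1a1*, *Col4a3*, *Col5a2*, *Col9a3*, *Col12a1*, *Col14a1*, *Col22a1* and *Col26a1*. Searched on both strands, CCAAT was in 11 of the 32, GGGCGG in 20 of the 32 and TATAAA in 4 of the 32, namely *Col3a1*, *Col11a2*, *Col13a1* and *Col17a1*. Among all 32851 windows of this length the shares were 33.8%, 32.7% and 12.4%. A match describes letters and no bound factor. The genes of the type IV chains lie head to head: the annotated first exons of *Col4a1* and *Col4a2* share 22 bases on chromosome 8, and the start sites of *Col4a5* and *Col4a6* on chromosome X lie 1342 bases apart. The bases shared by *Col4a1* and *Col4a2* are shown because reads that end in them cannot be given to one gene without strand.
Col4a1/Col4a2 chr8:11312805-11312826: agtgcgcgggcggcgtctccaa

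Collagens took 1.82% of the counts of male and 1.58% of those of female mesenchymal cells. The endothelial share was 0.113% and 0.104%, the epithelial share 0.0379% and 0.0814%, and the immune share 0.0118% and 0.0137%. The mesenchymal class was the highest of the 4 classes for 33 of the 40 genes, the endothelial class for 3, the immune class for 3 and the epithelial class for 1. A mesenchymal cell held counts on a median of 14 collagen genes in the male and 20 in the female pool, and cells of the other classes on 2 to 6. With each cell thinned to 50000 counts, which left out 13 shallower cells, the medians were 12 and 15 against 1 to 4.

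Within the mesenchymal class the share differed widely between clusters. It was highest in the portal fibroblast cluster m8 at 3.21%, a cluster of male cells of which 98.1% came from 1 plate. The peribiliary fibroblasts m4 followed with 2.59% in the male and 2.75% in the female pool, and m5, which joins second-layer cells around veins with venous smooth muscle cells, with 2.18% and 2.32%. The portal fibroblasts m1 stood at 1.58% and 2.15%, the Wt1-positive fibroblasts m9 at 1.76% and 1.99%, and the male portal fibroblasts m10 at 1.70%. The stellate cells m3 stood at 1.68% and 1.53% and the portal vein smooth muscle cells m7 at 1.48% and 1.57%. The smooth muscle cells m6, which the study places mainly in large veins, stood at 1.10% and 1.47%. The arterial smooth muscle cells m2 were lowest with 0.300% and 0.489%. The order between m2 and all other mesenchymal clusters held in both pools, while the range of the pools of m1 overlapped those of m3, m9 and m10, so that these are not ordered.

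**Figure D1:**
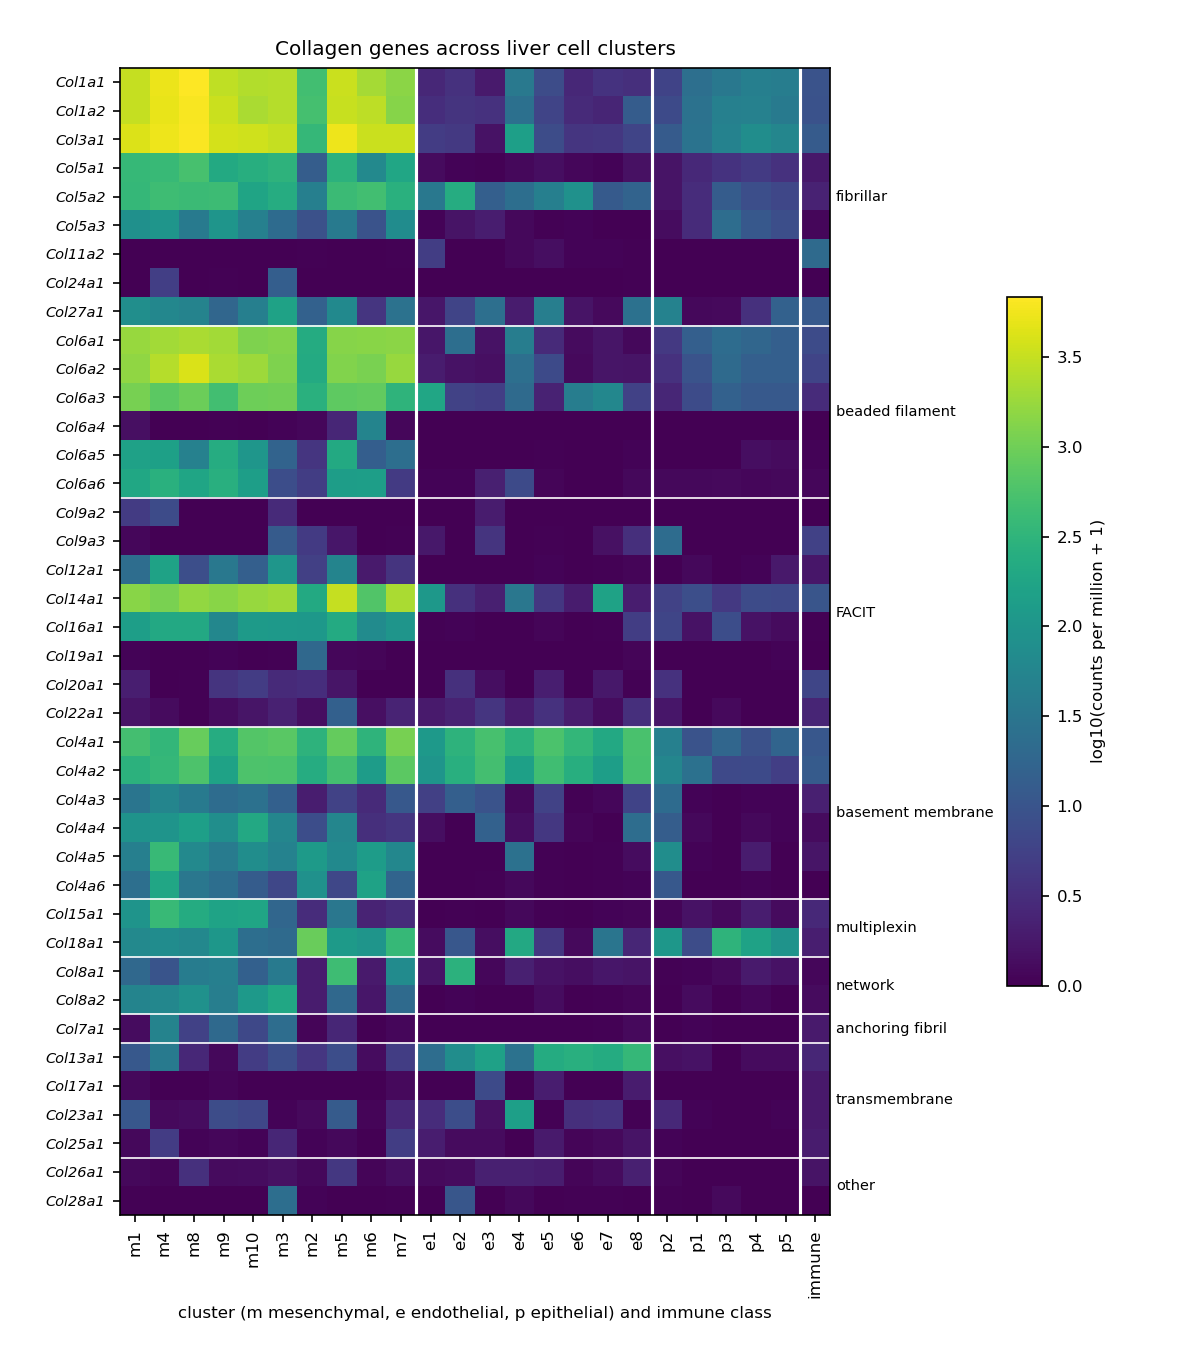
Levels of the 40 collagen genes (rows, grouped by structural family) in the mesenchymal (m), endothelial (e) and epithelial (p) clusters and in the immune class (columns), as log10 of CPM plus 1 over both pools. The mesenchymal columns are bright from the fibrillar to the multiplexin rows, m2 is the palest of them, and *Col4a1*, *Col4a2* and *Col13a1* stand out in the endothelial columns.

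Does the mesenchymal class carry the collagens of the liver? Of 39 genes that passed the filter on low counts (*Col24a1* did not), 26 were higher in mesenchymal cells than in the mean of the other classes and 0 were lower. A gene was called when its adjusted p was below 0.05 and its change was 1 or more on the log2 scale. Among all genes tested 9.47% were called higher and 2.33% lower. Of the 39, 29 were higher and 0 lower at an unadjusted p under 0.05, and DESeq2 called 27 higher and 1 lower (*Col11a2*), beside 11.3% and 6.57% of all genes. The median log2 fold change of the collagens tested was 6.30, and that of all genes was 0.018.

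Of paired levels the first is that of the male pool, and bare values after a level are log2 fold changes ± SE. Per kilobase of exon, over both pools of mesenchymal cells, the fibrillar chains *Col1a1*, *Col1a2* and *Col3a1* stood at 434, 228 and 373 CPM, and *Col5a1* at 30.4 CPM. *Col1a1*, the main chain of type I collagen, stood at 3159 CPM (male) and 2260.0 CPM (female) in the mesenchymal class, and the lowest, median and highest of the other 6 pools were 2.03, 4.72 and 17.6 CPM (log2 fold change 8.79 ± 0.72 SE, adjusted p = 0.000411). Its partner *Col1a2* stood at 2958 and 2581 CPM against 3.52, 8.22 and 18.8 CPM (8.50 ± 0.32). *Col3a1*, the chain of type III collagen, held 3784 and 3436 CPM against 2.91, 12.4 and 32.7 CPM (8.23 ± 0.40). For all 3 both mesenchymal pools lay above the other 6 pools, and the share of all genes that did so was not counted. Of the chains of type V, which sets fibril width, *Col5a1* held 264 and 247 CPM against 0.0995, 0.611 and 1.39 CPM (8.96 ± 0.52), and *Col5a3* 48.4 and 59.8 CPM against 0, 0.144 and 3.56 CPM (6.95 ± 1.46). *Col5a2* held 291 and 292 CPM in mesenchymal cells but also 34.8 and 92.9 CPM in endothelial cells, and its value of 5.80 ± 0.52 was called (adjusted p = 0.000533). *Col27a1* was spread over all classes, with 50.5 and 75.5 CPM in mesenchymal and 32.6 and 39.7 CPM in epithelial cells (1.996 ± 0.56, adjusted p = 0.055). Adjusted p-values of the called genes of this family lay between 6.89e-05 and 0.0177.

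All 6 beaded filament chains were higher in mesenchymal cells. *Col6a1* held 1400.2 and 1418 CPM against 1.32, 5.33 and 15.4 CPM in the other 6 pools (7.86 ± 0.87). *Col6a2* held 1815 and 1247 CPM against 0.289, 3.61 and 6.65 CPM (8.97 ± 0.76). These chains assemble with *Col6a3*, which held 715 and 838 CPM against 1.07, 3.63 and 51.4 CPM (6.88 ± 0.44), its highest other pools being the endothelial ones. Alternative partners of these chains were much lower outside the class. *Col6a5* held 92.8 and 119 CPM against 0, 0.0336 and 0.111 CPM (10.996 ± 0.62). *Col6a6* held 107 and 166 CPM against 0.0452, 0.207 and 0.768 CPM (8.97 ± 0.91). *Col6a4* reached 0.279 and 4.29 CPM (8.80 ± 1.66), and 52.6% of its counts came from 1 cell. The 6 adjusted p-values ran from 0.00016 to 0.0151.

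Of the 6 basement membrane chains 5 were called. The broad pair *Col4a1* and *Col4a2*, found in nearly every basement membrane, was shared with the endothelium. *Col4a1* held 601 and 463 CPM in mesenchymal and 416 and 298 CPM in endothelial cells (log2 fold change 3.15 ± 0.43 SE, adjusted p = 0.00287 against all 3 other classes). *Col4a2* held 449.8 and 282 CPM and 376 and 222 CPM (2.42 ± 0.55, adjusted p = 0.0242). The restricted chains differed. *Col4a5* held 96.5 and 93.4 CPM in mesenchymal, 45.4 and 76.6 CPM in epithelial and 0.0289 and 1.29 CPM in endothelial cells (5.14 ± 1.15), and *Col4a6* held 37.5 and 64 CPM, 6.07 and 12.2 CPM and 0.0346 and 0.0271 CPM (8.28 ± 0.71). *Col4a4* held 85.5 and 57.1 CPM in mesenchymal cells and *Col4a3* 23.9 and 13.5 CPM, with 13.5 and 8.13 CPM of *Col4a3* in epithelial cells. Their values were 5.01 ± 0.73 (adjusted p = 0.00376) and 2.33 ± 1.02 (adjusted p = 0.229).

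Both multiplexins were higher in mesenchymal cells. *Col15a1* held 126 and 66.2 CPM against 0, 0.189 and 1.79 CPM (8.61 ± 0.68), and *Col18a1*, the source of endostatin, held 125 and 415 CPM with 98 and 265 CPM in the epithelial pools (4.42 ± 0.54, adjusted p = 0.00171). The network chain *Col8a2* held 74.1 and 40.1 CPM against 0, 0.0593 and 0.75 CPM (9.02 ± 1.02), and *Col8a1* held 71.7 and 44.2 CPM with 35.1 and 37.1 CPM in endothelial cells (5.80 ± 0.65). Among 8 FACIT genes 4 were called. *Col14a1*, which binds fibrils, held 1627 and 1247 CPM against 3.29, 17 and 58.2 CPM (6.30 ± 0.69). *Col12a1* held 51.6 and 22.6 CPM against 0.0181, 0.216 and 0.877 CPM (7.97 ± 0.72), and *Col16a1* 119 and 168 CPM against 0, 0.494 and 11.3 CPM (7.98 ± 1.02). *Col19a1* held only 0.664 and 8.12 CPM in 49 cells of the table (log2 fold change 8.71 ± 1.22 SE, adjusted p = 0.00318). The anchoring fibril gene *Col7a1* held 13.1 and 4.23 CPM against 0, 0.0326 and 1.2 CPM (7.16 ± 1.08).

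None of the 4 transmembrane collagens and neither *Col26a1* nor *Col28a1* passed the test for the mesenchymal class. EdgeR and DESeq2 each called 0 of these 6, and 1 was higher at an unadjusted p under 0.05. Many of the remaining genes rested on few cells. *Col9a2* held 568 counts in 7 cells, with 1.22 and 2.03 CPM in mesenchymal pools. *Col24a1* held 657 counts in 21 cells, with 2.98 and 0.00879 CPM in the mesenchymal pools. *Col28a1* held 1306 counts in 17 cells, with 4.33 and 0.0703 CPM in mesenchymal and 0 and 3.15 CPM in endothelial pools, so that the sex in which it was seen changed with the class. *Col25a1* stood at no more than 1.48 CPM and *Col26a1* at no more than 0.888 CPM in any pool of a class. *Col23a1* held 3.13 and 6.81 CPM in mesenchymal and 2.38 and 8.12 CPM in endothelial cells.

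Low levels of *Col1a1*, *Col1a2*, *Col3a1*, *Col6a1* and *Col6a2* in the other classes moved with the plate. Of 22 plates 10 held mesenchymal cells. In endothelial cells *Col3a1* stood at 30.4 CPM on plates that also held mesenchymal cells (178 cells) and at 1.34 CPM on the others (928 cells). In epithelial cells it stood at 31.0 CPM (345 cells) and 0.361 CPM (52 cells), and in immune cells at 78.0 CPM (87 cells) and 1.57 CPM (564 cells). A few cells carried much of these sums. On the shared plates the 5 highest cells held 86.2% of the *Col3a1* counts in immune, 68.5% in endothelial and 22.6% in epithelial cells. The median cell stood at 12.5, 7.68 and 9.09 CPM there and at 0 on the other plates in each of the 3 classes. *Dcn*, a mesenchymal marker, moved the same way, with medians over cells of 62.6 CPM in immune, 30.9 CPM in endothelial and 37.9 CPM in epithelial cells of the shared plates and 0 on the others. *Col6a1* stood at 48.5 and 0.0373 CPM in immune cells, 93.8% of the former in 5 cells, and at 8.90 and 0.0902 CPM in epithelial cells. Not every collagen followed. *Col27a1* was lower on the shared plates in immune cells, at 2.51 and 12.2 CPM, and in epithelial cells, at 22.6 and 115 CPM, and *Col11a2* in immune cells stood at 0.0808 and 23.6 CPM. *Col14a1* stood at 5.98 and 0.0902 CPM in epithelial but at 21.2 and 40.5 CPM in endothelial cells. Among the collagens high in a class, *Col13a1* stood at 184.3 and 160.1 CPM in endothelial cells on both kinds of plate, *Col4a1* at 454 and 355 CPM, and *Col8a1* at 39.9 and 35.1 CPM. Cells with at least 20 counts on 2 or more of *Pdgfra*, *Pdgfrb*, *Dcn* and *Lum* numbered 16 of 397 epithelial, 4 of 651 immune and 1 of 1106 endothelial cells. The part of stray mesenchymal transcript in these low values was not tested. With these plates left out for the other classes, a choice made after seeing the data, 22 collagens were higher in mesenchymal cells, where 6.64% of all genes were called higher, and *Col4a1*, *Col4a4*, *Col7a1* and *Col18a1* were no longer called.

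**Figure D2:**
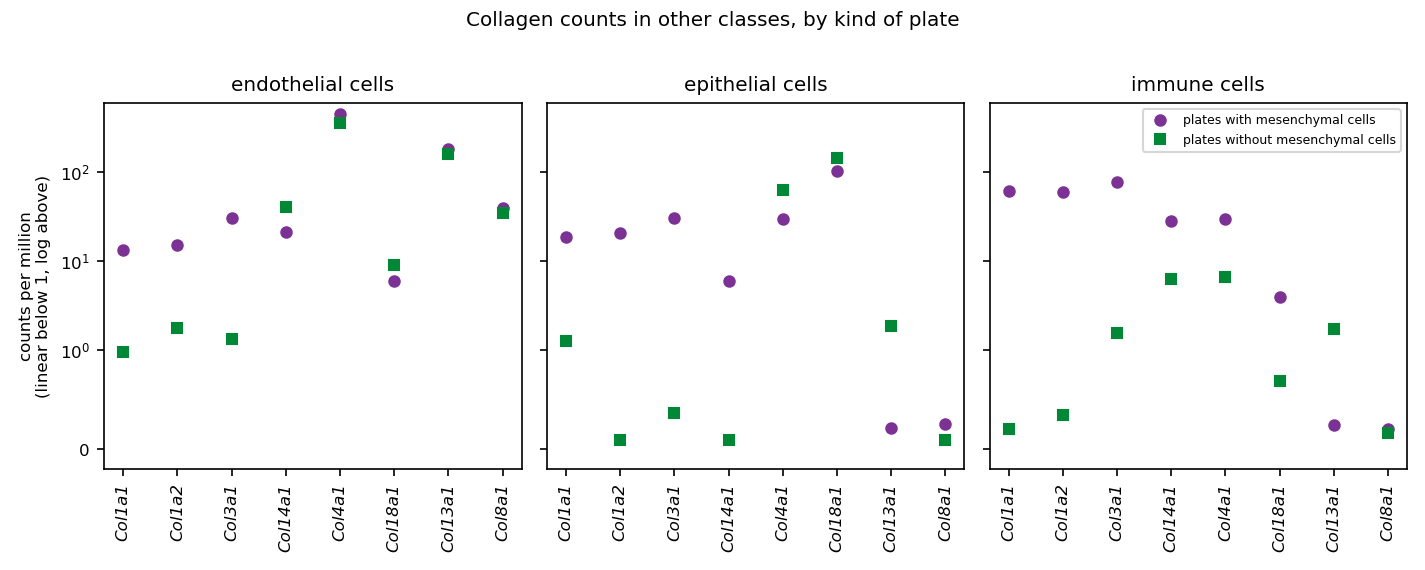
CPM of 8 collagen genes in endothelial, epithelial and immune cells, on plates that also held mesenchymal cells (circles) and on plates that did not (squares), linear below 1 and logarithmic above. *Col1a1*, *Col1a2* and *Col3a1* are higher on the shared plates in every panel, with *Col3a1* at 78.0 against 1.57 in immune cells, where 5 cells held 86.2% of the counts, while *Col13a1* and *Col4a1* differ little in endothelial cells.

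Of the collagens called higher in the endothelial class, *Col13a1* alone was highest there, and the other 3 stood higher in mesenchymal cells. Of 39 collagens tested, 4 were higher than in the mean of the other classes and 9 were lower, where 5.33% of all genes were called higher and 2.96% lower. *Col13a1*, a transmembrane collagen, was the clearest, with 133 CPM (male) and 211 CPM (female) and the other pools at 0.228, 2.47 and 11.5 CPM (log2 fold change 6.02 ± 0.75 SE, adjusted p = 0.00343). *Col8a1*, a short chain network collagen, followed with 35.1 and 37.1 CPM (log2 fold change 4.73 ± 0.63 SE, adjusted p = 0.00454), although the mesenchymal pools held 71.7 and 44.2 CPM. *Col5a2* was called (log2 fold change 2.76 ± 0.50 SE, adjusted p = 0.0144) without its partner *Col5a1*, which stood at 0.26 and 0.0995 CPM and was lower (-5.12 ± 0.69). *Col4a1* was called at 2.23 ± 0.44 (adjusted p = 0.0197), while *Col4a2* at 1.87 ± 0.56 was not (adjusted p = 0.0825). For these 4 the contrast is with a mean of logs over 3 classes, in which the low immune and epithelial pools weigh as much as the high mesenchymal ones.

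The 9 lower collagens were *Col15a1* (-6.56 ± 1.004), *Col4a6* (-5.98 ± 1.03), *Col12a1* (-5.84 ± 1.03), *Col6a5* (-5.43 ± 0.82), *Col5a1*, *Col6a2* (-4.74 ± 0.99), *Col1a1* (-4.68 ± 0.94), *Col3a1* (-4.50 ± 0.52) and *Col1a2* (-4.35 ± 0.41). Each of them was called higher in mesenchymal cells. Without the plates that held mesenchymal cells, *Col5a2*, *Col8a1* and *Col13a1* remained called as higher and 0 were lower, by edgeR with 8 higher and 4 lower at an unadjusted p under 0.05. The calls over all genes fell in that setting too, to 1.44% higher and 0.182% lower. With the cells of mixed markers left out, 4 were higher and 5 lower, beside 5.40% and 2.71% of all genes. With the mesenchymal class taken out of the contrast, 6 were higher, adding *Col4a2* and *Col6a3*, and 4 were lower, beside 5.84% and 3.36% of all genes.

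In the epithelial class 3 collagens were higher and 4 lower, where 8.37% and 4.05% of all genes were called. The higher ones were the basement membrane chains *Col4a6* (log2 fold change 4.85 ± 0.66 SE, adjusted p = 0.00281) and *Col4a5* (log2 fold change 4.14 ± 1.13 SE, adjusted p = 0.049) and the multiplexin *Col18a1* (log2 fold change 3.55 ± 0.53 SE, adjusted p = 0.00446). *Col18a1* held 98 CPM (male) and 265 CPM (female), below the female mesenchymal pool at 415 CPM. The lower ones were *Col8a1* (-5.34 ± 0.99), *Col5a2* (-3.88 ± 0.71), *Col6a3* (-3.55 ± 0.58) and *Col1a2* (-1.51 ± 0.34). Without the plates that held mesenchymal cells edgeR called 0 collagens higher and 4 lower, with 5 and 13 at an unadjusted p under 0.05, where 2.65% and 0.916% of all genes were called, and only 52 epithelial cells remained. The values then were 5.27 ± 1.49 (adjusted p = 0.101) for *Col4a5*, 4.74 ± 1.16 (adjusted p = 0.0674) for *Col4a6* and 3.25 ± 1.33 (adjusted p = 0.228) for *Col18a1*. Their epithelial levels on plates with and without mesenchymal cells were 47.2 and 49.3 CPM for *Col4a5*, 6.37 and 7.22 CPM for *Col4a6* and 104 and 144 CPM for *Col18a1*. With the mesenchymal class taken out of the contrast, *Col1a2* turned to a higher call at 1.49 (adjusted p = 0.0184), its levels of 18.8 and 13.1 CPM being among those that moved with the plate. In that setting 6 collagens were higher, *Col3a1* and *Col16a1* also being added, and 1 was lower, *Col8a1*, beside 8.88% and 5.03% of all genes, so that *Col5a2* and *Col6a3* were no longer called.

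Immune cells held few collagens, but for some low genes they were the top class. *Col11a2* reached 30.6 CPM in the female immune pool and 3.03 CPM in the male one, and stood at 0 to 1.98 CPM in the other classes. *Col20a1* reached 8.09 CPM in the female and 0.676 CPM in the male immune pool, against 0 to 1.78 CPM. *Col22a1* was spread at low level over all classes, from 0.38 CPM in male epithelial to 4.44 CPM in female mesenchymal cells, and 1 of its 493 positive cells held 20 counts or more. *Col17a1*, a hemidesmosome component, held 675 counts in 25 cells, with 2.77 CPM in the male endothelial pool and 1.81 CPM in the male immune pool. *Col9a3* was highest in epithelial cells at 13.9 and 10.6 CPM. The immune class was not divided further here.

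Within the mesenchymal class, fibroblasts (m1, m4, m8, m9 and m10; 8 sums of cells) were compared with mural cells (m2, m5, m6 and m7; 8 sums). Each cluster had its own mean, so the p-values measure the spread between the male and female sums of a cluster, not that between clusters. Clusters m8 and m10, with 1 sum each, add nothing to that spread. Of 39 collagens tested 14 were higher in fibroblasts and 1 was lower, where 2.25% and 0.966% of all genes were called. The median log2 fold change was 1.10 over the collagens and 0.095 over all genes. Of the marker lists, 3 of 4 mesenchymal markers were higher and 4 of 4 mural markers lower in fibroblasts. The called genes were 6 fibrillar chains, 4 beaded filament chains, *Col4a4*, *Col8a2*, *Col7a1* and *Col15a1*, and 0 of 8 FACIT genes passed in edgeR, with 3 at an unadjusted p under 0.05. DESeq2 called 1 FACIT gene higher and 1 lower, beside 4.59% and 3.31% of all genes.

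The largest changes were in restricted collagens. *Col15a1* had lowest, median and highest levels of 47.1, 159.7 and 416 CPM in fibroblast sums and of 0, 2.11 and 44.1 CPM in mural sums (log2 fold change 5.66 ± 0.56 SE, adjusted p = 5.55e-06), with no overlap. Its highest sum was the male pool of m4 at 416 CPM, and the mural cluster nearest to fibroblasts was m5 with 25.9 and 44.1 CPM. Of the 122 cells of m5, 87 are second-layer cells (m5c), which a gene score of the study placed closer to fibroblasts than to mural cells. They count as mural cells in the comparisons here. *Col7a1*, the anchoring fibril chain, was sparse, with 0.182, 5.13 and 54.3 CPM against 0, 0.0881 and 2.46 CPM (log2 fold change 5.66 ± 1.28 SE, adjusted p = 0.0192). *Col8a2* showed 16.7, 66.5 and 114 CPM against 0, 5.85 and 22.2 CPM (log2 fold change 4.35 ± 0.57 SE, adjusted p = 0.000149), while its partner *Col8a1* was not called (1.08 ± 0.68, adjusted p = 0.66). *Col4a4* was the other collagen without overlap, with 73.1, 96.1 and 203 CPM against 0.568, 4.59 and 72.8 CPM (log2 fold change 4.19 ± 0.45 SE, adjusted p = 1.45e-05), and *Col4a3* was not called (3.28 ± 0.92, adjusted p = 0.0613). The share of all genes without overlap was not counted.

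The type I and III chains changed by less. *Col1a1* ran over 2479, 3166 and 6821 CPM in fibroblast sums and 439, 1783 and 3362 CPM in mural sums (log2 fold change 1.46 ± 0.09 SE, adjusted p = 4.1e-08). *Col1a2* ran over 2254, 3622 and 6304 CPM and 327, 2029 and 3589 CPM (1.35 ± 0.12). *Col3a1* ran over 3281, 4689 and 6493 CPM and 209, 3349 and 5927 CPM (1.20 ± 0.13). In all 3 the groups overlapped: m5 lay among the fibroblasts and m2 below every other sum. The type V chains *Col5a1* and *Col5a3* rose by 2.23 ± 0.27 and 1.92 ± 0.52 on the log2 scale, and *Col27a1* by 1.78 ± 0.45. In type VI, *Col6a6* rose by 3.40 ± 0.44, *Col6a5* by 2.19 ± 0.56, *Col6a2* by 1.51 ± 0.16 and *Col6a1* by 1.10 ± 0.14, while *Col6a3* at 0.93 ± 0.20 stayed under the fold threshold (adjusted p = 0.0141). *Col5a2* gave 0.73 ± 0.30 (adjusted p = 0.273).

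*Col18a1* was the 1 collagen lower in fibroblasts, with 9.26, 62.4 and 171 CPM against 52.2, 236 and 1131 CPM (log2 fold change -2.06 ± 0.45 SE, adjusted p = 0.0125). It stood at 584 and 1131 CPM in arterial and 375 and 348 CPM in portal vein smooth muscle cells. With sums made per plate, edgeR called 5 collagens higher and 0 lower in fibroblasts, with 15 and 2 at an unadjusted p under 0.05, beside 0.542% and 0.261% of all genes.

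**Figure D3:**
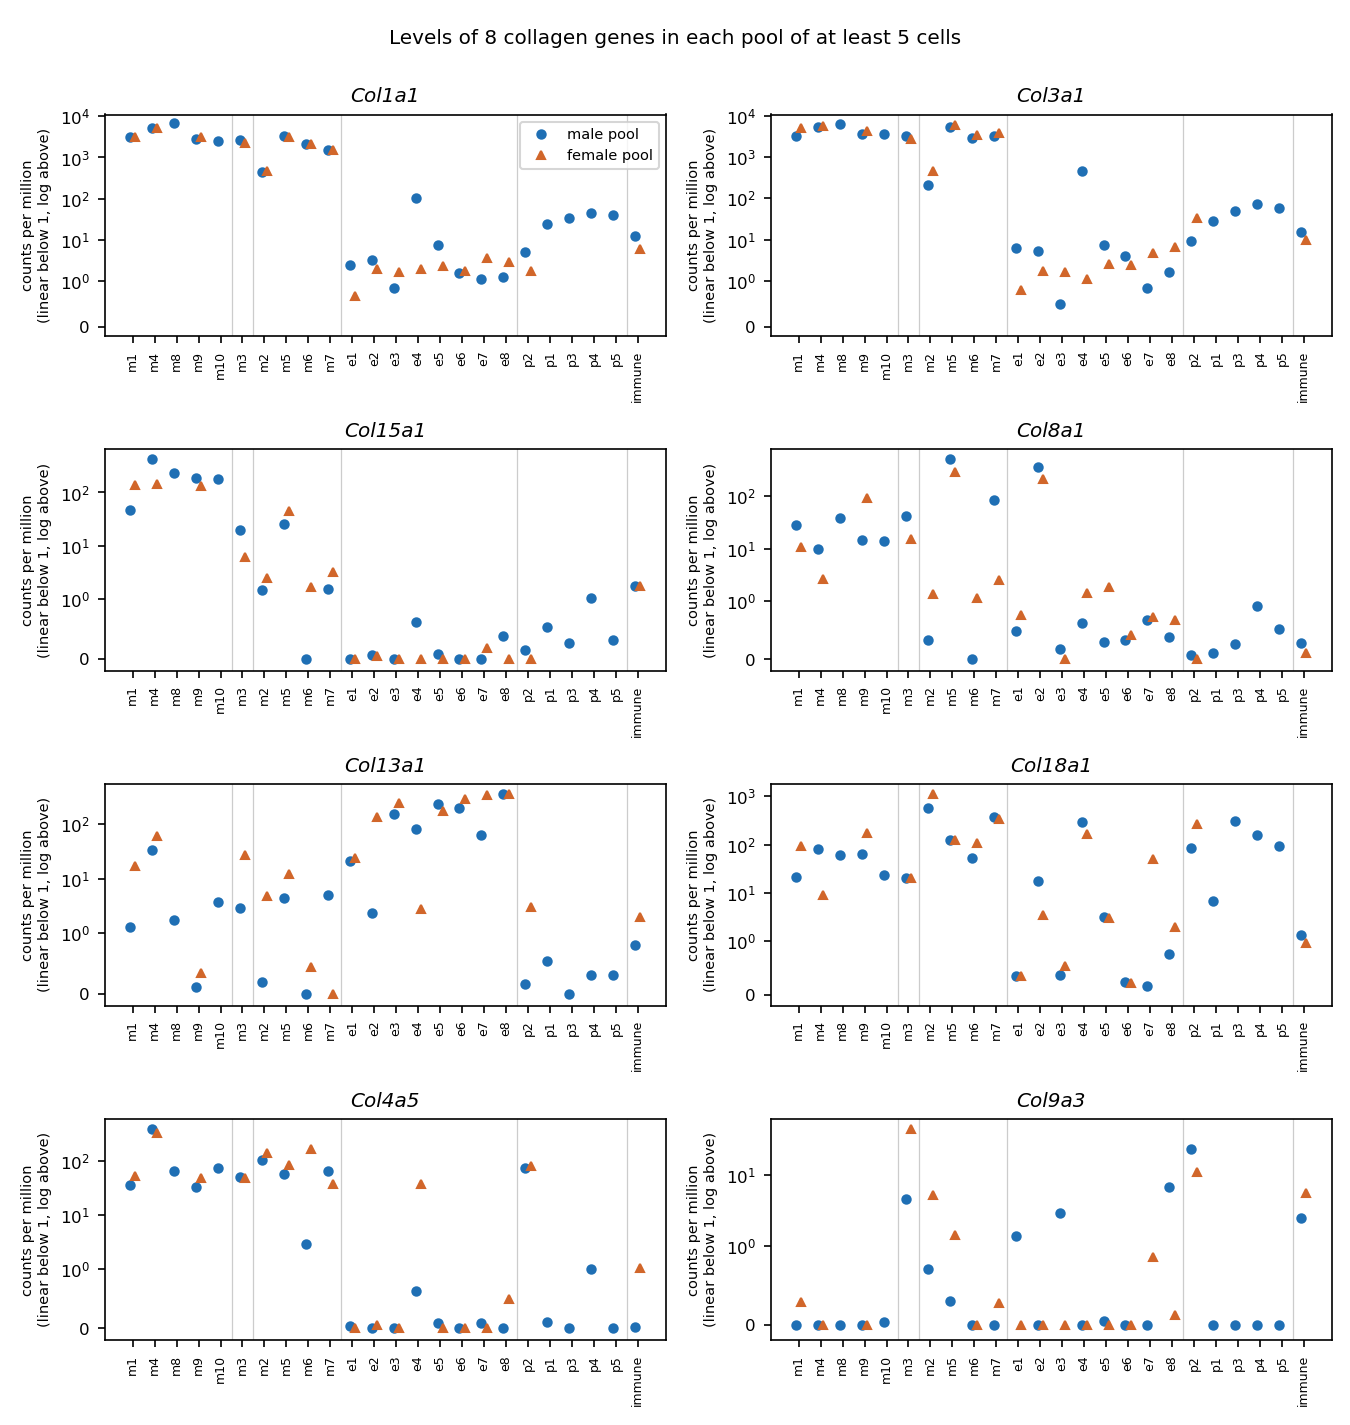
CPM of 8 collagen genes in each cluster (columns: fibroblasts m1 to m10, stellate cells m3, mural clusters m2 to m7, endothelial e, epithelial p, immune class), with the male pool as circles and the female pool as triangles, for pools of at least 5 cells, linear below 1 and logarithmic above. *Col1a1* falls in m2, *Col8a1* peaks in m5 and e2, *Col13a1* in endothelial clusters, *Col18a1* in m2 and *Col4a5* in m4.

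**Figure D4:**
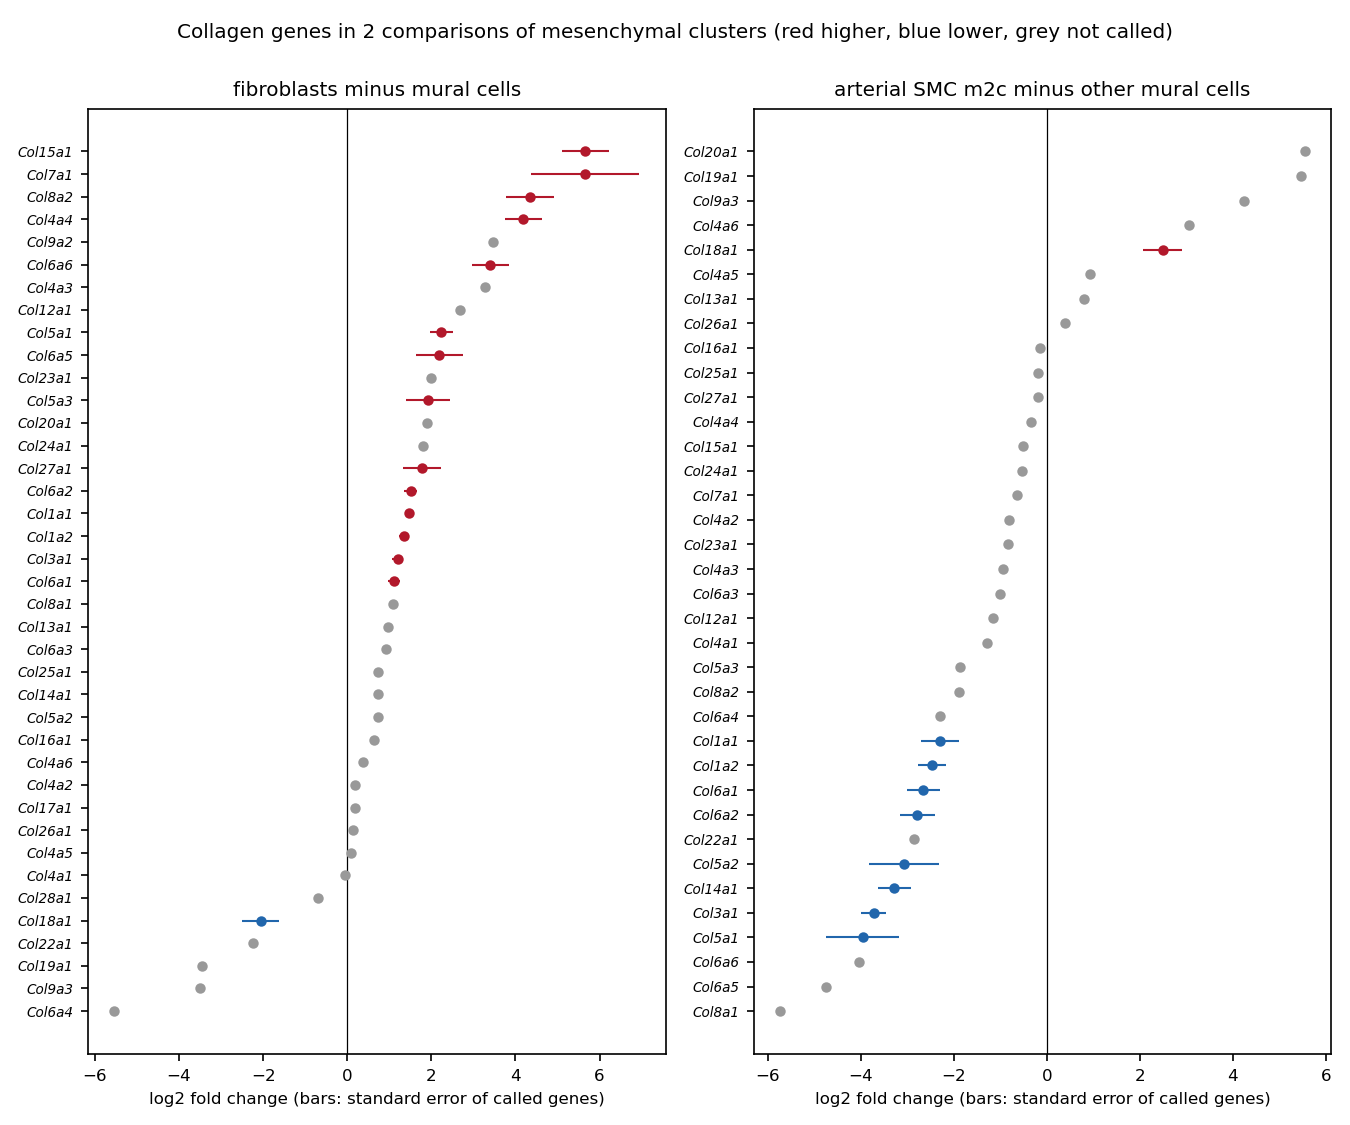
Log2 fold change of each collagen gene tested in fibroblasts against mural cells (left) and in arterial smooth muscle cells m2c against other mural cells (right), with bars of 1 standard error on called genes, red when higher, blue when lower and grey when not called. On the left 14 genes are red and *Col18a1* is the 1 blue gene, and on the right *Col18a1* is the 1 red gene above 8 blue ones.

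Stellate cells (cluster m3, 161 male and 26 female cells) were then compared with the fibroblasts. Their type I and III chains lay near the lower end of the fibroblast sums. *Col1a1* stood at 2655 and 2218 CPM (-0.77 ± 0.14, adjusted p = 0.0148, under the fold threshold) and *Col3a1* at 3253 and 2793 CPM (-0.74 ± 0.21, adjusted p = 0.132). The lowest fibroblast sums were 2479 CPM for *Col1a1* and 3281 CPM for *Col3a1*. *Col1a2* stood at 2622 and 2221 CPM, its male value above the fibroblasts m10 at 2254 CPM. Of 39 collagens 2 were higher and 1 lower, where 0.492% and 0.224% of all genes were called. *Col9a3*, a FACIT chain best known from cartilage, stood at 4.56 CPM (male) and 43.9 CPM (female) and at 0, 0 and 0.282 CPM in the fibroblast sums (log2 fold change 10.30 ± 1.93 SE, adjusted p = 0.0239). *Col6a6* stood at 6.35 and 10.1 CPM against 115, 195 and 733 CPM (log2 fold change -4.92 ± 0.89 SE, adjusted p = 0.014). *Col28a1* was called (log2 fold change 9.86 ± 2.11 SE, adjusted p = 0.0489) on 28.5 CPM in male cells with 0 CPM in female cells, and without the male pool its value was -0.96. Fitted values of such sparse genes depend on the prior count and are not bounds.

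At the finer clustering m3 divides into capsular stellate cells (m3c, 113 cells) and the other stellate cells (m7c, 72 cells). Each gave 1 sum per pool, and the female sum of m7c, the second value given for it, held only 4 cells. EdgeR called 0 of 36 collagens, with 11 at an unadjusted p under 0.05, where 0.0124% of all genes were called, 0.00622% in each direction. DESeq2 called 6, all higher in m3c, beside 0.896% of all genes higher and 0.828% lower. *Col8a2* stood at 342 and 201 CPM in m3c and 5.25 and 1.68 CPM in m7c (6.09 ± 1.61, adjusted p = 0.787). *Col12a1* stood at 178 and 109.6 CPM and 1.08 and 0.839 CPM (adjusted p = 0.866), *Col27a1* at 183 and 471 CPM and 16.2 and 5.87 CPM (adjusted p = 0.866), and *Col4a4* at 95.4 and 73.7 CPM and 0.576 and 0.839 CPM (adjusted p = 0.809). *Col1a1* stood at 3708 and 2607 CPM and 1231 and 253 CPM (1.97 ± 0.45, adjusted p = 0.337), both pools of m3c lying above both pools of m7c. The other genes that DESeq2 called were *Col6a4* and *Col7a1*.

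The peribiliary fibroblasts m4 and the fibroblast cluster m9 were each compared with the other fibroblasts, and the calls depended on the setting. For m4, 0 of 39 were called, with 11 at an unadjusted p under 0.05, where 0.0626% of all genes were called, 0.0224% higher and 0.0402% lower, and DESeq2 called *Col13a1* as higher, beside 0.742% and 0.943% of all genes. *Col4a5* stood at 382 and 327 CPM in m4 (2.61 ± 0.77, adjusted p = 0.43), above every other mesenchymal sum, and *Col4a6* at 195 and 114 CPM (2.72 ± 1.19, adjusted p = 0.725). For m9, 0 were called, with 6 at an unadjusted p under 0.05, where 0.286% of all genes were called, 0.201% higher and 0.085% lower. DESeq2 called *Col6a4* as higher and *Col4a1*, *Col4a2* and *Col13a1* as lower, beside 1.77% and 0.881% of all genes. *Col4a1* stood at 233 and 233 CPM in m9 (-1.32 ± 0.29, adjusted p = 0.0678), and edgeR called it lower with 10 cells per sum, with no filter on low counts or with the pool as a block, which also called *Col6a3*. Cluster m9 includes 6 cells that the finer clustering sets apart as m16c, which carried 0.569% collagen counts, and m9 held *Krt19* at 80.2 CPM.

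Arterial smooth muscle cells (m2c of the finer clustering) carried the leanest set of collagens among mural cells. Of 36 collagens tested 1 was higher and 8 were lower than in the other mural clusters, where 1.66% and 0.933% of all genes were called, and the medians were -0.98 over the collagens and 0.242 over all genes. *Col5a1* showed 5.14 and 17.2 CPM against 55.7, 188 and 436 CPM in the other mural sums (log2 fold change -3.96 ± 0.79 SE, adjusted p = 0.0113), and *Col5a2* fell by 3.07 ± 0.75 on the same scale. *Col3a1* showed 209 and 446 CPM against 3083, 4395 and 6015 CPM (log2 fold change -3.72 ± 0.27 SE, adjusted p = 2.57e-06). The type I chains were lower by less, with -2.29 ± 0.41 for *Col1a1* and -2.47 ± 0.30 for *Col1a2*. The type VI chains gave -2.79 ± 0.37 for *Col6a2* and -2.66 ± 0.35 for *Col6a1*, with *Col6a3* at -1.02 ± 0.52 not called (adjusted p = 0.469), and the FACIT chain *Col14a1* gave -3.28 ± 0.35.

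*Col18a1* went the other way in arterial cells, with 584 and 1142 CPM against 55.7, 127 and 388 CPM (log2 fold change 2.49 ± 0.42 SE, adjusted p = 0.00435). With sums made per plate edgeR called 1 collagen higher, *Col19a1* and not *Col18a1*, beside 3.43% of all genes. In that setting 8 were lower, with *Col8a1* in place of *Col5a2*, beside 0.878% of all genes. The basement membrane chains *Col4a1* (-1.29 ± 0.41, adjusted p = 0.128) and *Col4a5* (0.92 ± 1.10, adjusted p = 1) were not called. Among the markers, 2 of 4 mesenchymal markers were lower and 2 of 4 mural markers higher in m2c. *Col19a1*, a sparse FACIT gene, stood at 6.78 and 26.5 CPM in m2c (5.47 ± 1.74, adjusted p = 0.129). Among the venous cells, *Col8a1* was high in the small cluster m9c of venous smooth muscle cells, at 1207 CPM (male) and 672 CPM (female). It was also high in m5 at 511 and 293 CPM, against 0.327 and 1.33 CPM in m2. Of the 39 cells of m9c, 34 lie in m5, so the levels of m9c and m5 are not separate.

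How closely partner chains kept step was read as the ratio of their counts per kilobase of exon. The ratio depends on the exon length used for each gene, so its change between clusters says more than its value. *Col1a1* to *Col1a2* was 1.91 over the mesenchymal class and ran from 1.39 in m6 to 2.08 in m10, the narrowest band of the 6 pairs plotted, although *Col1a1* itself differed widely in level. It ran from 1.7 to 2.54 over the male pools and from 1.33 to 1.89 over the female ones. *Col4a1* to *Col4a2* ran from 0.808 in m4 to 1.74 in m1 over the male pools and from 1.09 in m7 to 2.42 in m3 over the female ones, so that the clusters at its ends changed with the pool. In endothelial clusters the pools of e4 gave 1.21 and 3.91 and those of e3 gave 0.989 and 0.349, and these clusters are not ordered. *Col6a1* to *Col6a2* ran from 1.01 in m8 to 2.39 in m6. Other partners parted. *Col6a3* to *Col6a1* was highest in m2 in both pools, at 0.499 and 0.409, and stood at 0.0748 and 0.0859 in m7. *Col5a1* to *Col5a2* ran from 0.149 in m6 to 1.65 in m10 over both pools, and reached 2.79 in the female pool of m3. *Col8a1* to *Col8a2* was highest in m5, at 13.3 and 13.8, while the pools of m9 gave 0.144 and 3.19. Over the single cells of a cluster, both pools together, Spearman's rho of *Col1a1* and *Col1a2* ran from 0.35 in m2 and m7 to 0.73 in m4, and that of *Col4a1* and *Col4a2* from 0.06 in m9 to 0.38 in m5. In m2 the values were 0.35 and 0.34, and its female pool gave 0.15 and 0.36. The cells differ in plate and depth, and the values are given as a description.

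**Figure D5:**
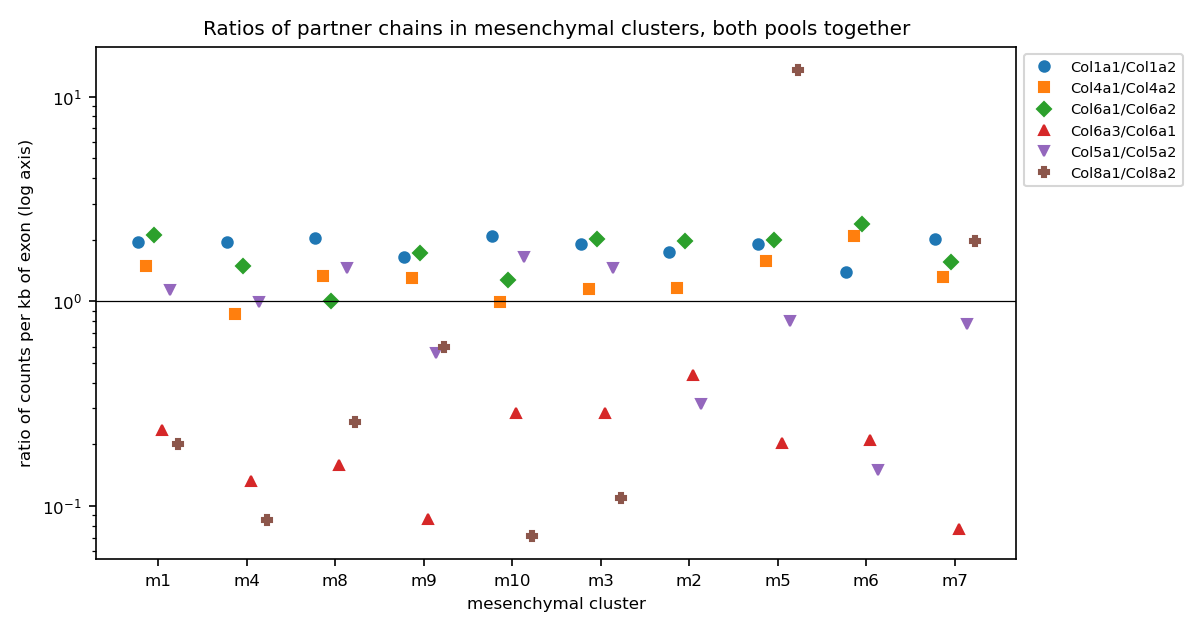
Ratio of counts per kilobase of exon for 6 pairs of partner chains in the 10 mesenchymal clusters, both pools together, on a log axis, a missing mark being a pair with too few counts. The ratio of *Col1a1* to *Col1a2* stays between 1.39 and 2.08, while *Col8a1* to *Col8a2* climbs to 13.4 in m5.

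In the endothelium the large vein clusters (e1 central vein, e2 portal vein) were compared with the sinusoidal clusters. Of 28 collagens that passed the filter 1 was called, *Col8a1* (log2 fold change 4.86 ± 0.70 SE, adjusted p = 0.00194), where 0.961% of all genes were called in either direction, 0.819% higher and 0.142% lower. The call belonged to the portal vein: e2 held 373 CPM (male) and 212 CPM (female), and e1 held 0.49 and 0.76 CPM, within the sinusoidal range of 0, 0.397 and 1.83 CPM. Taken alone, a choice made after seeing the data, e2 differed from the sinusoids in *Col8a1* (9.27, adjusted p = 1.92e-05) and e1 did not pass (0.44, adjusted p = 1). In the same way e1 was called higher than the sinusoids in *Col14a1* (4.92, adjusted p = 0.0171), the 1 collagen called there beside 1.18% of all genes called higher, and e2 was not (-0.76, adjusted p = 1). The sinusoidal group of that fit includes e7, whose *Col14a1* level was above that of e1 in each pool. *Col13a1* was not called in the fit of both veins (-2.64 ± 0.91, adjusted p = 0.248). It stood at 352 and 353 CPM in e8, 194 and 285 CPM in e6, 237 and 175 CPM in e5, and 152 and 247 CPM in e3. Cluster e7, which the study assigns to the central vein and which was placed here with the sinusoids, held 63.1 and 344 CPM. In e1 it stood at 20.7 and 24.2 CPM, and in e2 at 2.36 and 136 CPM, so the pools of e2 disagreed. The study splits e2 further and proposes that 14 of its cells (e5c), 9 of them female, come from the peribiliary vasculature. They were not described apart here. *Col13a1* was called lower in the veins by DESeq2, with sums per plate, with thinned cells and with no filter on low counts.

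Between the veins, edgeR called 0 of 28 collagens, with 8 at an unadjusted p under 0.05, where 0.0764% of all genes were called, 0.0491% higher and 0.0273% lower, and DESeq2 called 4, beside 0.813% and 0.862% of all genes. The central vein e1 held *Col14a1* at 81 and 148 CPM against 0.93 and 3.68 CPM in e2 (5.68 ± 1.86, adjusted p = 0.703) and *Col6a3* at 189 and 181 CPM against 9.3 and 0.736 CPM (5.22 ± 2.01, adjusted p = 0.785). Both pools of e1 lay above both pools of e2 for these genes. The partners of *Col6a3* were nearly silent in e1, with *Col6a1* at 0.91 and 0.402 CPM and *Col6a2* at 1.4 and 0.358 CPM. For *Col8a1* the difference was -8.83 ± 1.65 (adjusted p = 0.0664), the portal vein being higher. Cluster e7, part of the sinusoidal group above, held *Col14a1* at 131 and 183 CPM, above e1 in each pool.

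The lymphatic cluster e4 was small, with 9 male and 13 female cells. It held *Col23a1*, a transmembrane collagen, at 169 and 135 CPM, and *Col18a1* at 294 and 167 CPM, both in both pools. Its male pool also held *Col3a1* at 469 CPM, *Col1a1* at 105 CPM and *Col6a1* at 135 CPM, where the female pool held 1.12, 1.95 and 0 CPM. The mesenchymal marker *Dcn* stood at 259 CPM in e4 over both pools, and its part in these fibrillar values was not tested.

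Cholangiocytes (p2, 157 male and 37 female cells) were compared with the hepatocyte clusters p1, p3, p4 and p5. The 4 hepatocyte sums all came from the 1 male pool, and the fit had 1 residual degree of freedom, from the male and female sums of p2, so the spread between samples behind the p-values came from that pair alone. Of p4 and p5, 94.9% and 98.2% of the cells came from 1 plate. Of 25 collagens that passed the filter 7 were higher and 8 lower in cholangiocytes. Among all genes 28.6% were called higher and 8.67% lower, with a median of 1.38, so that a call in this comparison is common. The higher collagens were basement membrane chains for the most part. *Col4a5* stood at 74.1 CPM (male) and 78.5 CPM (female) and at 0 to 0.986 CPM in hepatocytes (log2 fold change 10.02 ± 1.30 SE, adjusted p = 2.6e-06). *Col4a6* stood at 9.92 and 12.5 CPM with 1 count in all hepatocyte sums, a ratio of summed levels of 365 with a 95% counting interval from 65.3 to 14441. Of all epithelial cells, 15 of 345 on plates with mesenchymal cells and 2 of 52 on the others held a count of *Col4a6*. The interval treats reads as independent. *Col4a3* stood at 22.1 and 8.33 CPM with 3 counts in hepatocytes, an interval of the ratio from 84.4 to 1200.2. *Col4a4* rose by 6.42 ± 1.69 and *Col4a2* by 2.92 ± 0.76, and *Col4a1* did not pass (1.85 ± 0.77, adjusted p = 0.0632).

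*Col9a3* stood at 22.8 and 10.9 CPM in cholangiocytes and at 0 in every hepatocyte sum, and was at least 258-fold higher against a floor of 3 counts over the group. Few cells carried it: of all epithelial cells, 12 of 345 on plates with mesenchymal cells and 5 of 52 on the others held a count. The bound covers counting error only. *Col27a1* stood at 50.2 and 40.7 CPM (4.47 ± 0.97, adjusted p = 0.000893). The 8 lower genes were *Col1a1*, *Col1a2*, *Col3a1*, *Col5a2*, *Col5a3*, *Col6a1*, *Col6a2* and *Col6a3*, all fibrillar or beaded filament chains. *Col3a1* ran from 28 to 74.7 CPM in hepatocytes and stood at 9.34 and 33.5 CPM in cholangiocytes. In p3 mural transcripts were present, with *Acta2* at 254 CPM and *Myh11* at 158 CPM. *Col18a1* stood at 305 CPM in p3, and the part of mural transcript in this value was not tested. Over all epithelial cells *Col18a1* stood at 104 and 144 CPM on plates with and without mesenchymal cells. Of 4 mesenchymal markers 2 were also lower in cholangiocytes, and their part in the fibrillar difference was not tested. With sums made per plate, *Col4a5* alone was called among 22 collagens tested, by edgeR with 8 at an unadjusted p under 0.05, and calls over all genes fell to 3.73% higher and 4.22% lower.

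Genes that build or cut procollagen were read from a list of 36 enzymes and chaperones, and they followed the mesenchymal pattern in part. Against the other classes 21 of 35 tested were higher in mesenchymal cells and 0 lower by edgeR, beside 9.47% and 2.33% of all genes, with 24 and 1 at an unadjusted p under 0.05, and 24 and 1 by DESeq2 (11.3% and 6.57% of all genes). The crosslinking enzymes *Loxl1* (8.31 ± 0.60) and *Lox* (6.09 ± 1.26), the N-propeptidases *Adamts2* (8.19 ± 0.48) and *Adamts14* (4.89 ± 1.21), and *Pcolce*, which speeds removal of the C-propeptide (4.91 ± 0.44), gave the largest values. In fibroblasts against mural cells 6 of 34 were higher and 0 lower, beside 2.25% and 0.966% of all genes, with 14 and 0 at an unadjusted p under 0.05 and 8 and 0 by DESeq2 (4.59% and 3.31% of all genes), among them *Fkbp14* (2.43 ± 0.48), *Pcolce* (1.98 ± 0.13), *Loxl1* (1.72 ± 0.20), *P3h3* (1.65 ± 0.44) and *Creb3l1* (1.46 ± 0.37). With sums made per plate 2 of 33 were higher, beside 0.542% of all genes. In arterial smooth muscle cells 0 of 33 were higher and 4 lower, beside 1.66% and 0.933% of all genes, with 2 and 9 at an unadjusted p under 0.05 and 0 and 5 by DESeq2 (1.95% and 2.53% of all genes): *Pcolce2* (-5.62 ± 1.09), *Adamts2* (-3.87 ± 0.57), *Pcolce* (-2.10 ± 0.41) and *Sparc* (-1.04 ± 0.20). *Pcolce2* was also lower in stellate cells than in fibroblasts (-4.90 ± 0.86).

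In endothelial cells 4 of 35 genes of this list were higher and 4 lower, where 5.33% and 2.96% of all genes were called. *Colgalt2*, a collagen galactosyltransferase, gave 4.17 ± 0.59, *Loxl4* 2.69 ± 0.61, the prolyl hydroxylase *P3h2* 2.67 ± 0.44 and *Sparc* 1.35 ± 0.32, and the lower side was led by *Pcolce2* at -6.46 ± 0.62. Without the plates that held mesenchymal cells edgeR called 0 of them higher and 1 lower, with 6 and 4 at an unadjusted p under 0.05, beside 1.44% and 0.182% of all genes, and DESeq2 with all plates called 5 and 5, beside 8.18% and 10.5%. In the vein clusters *Lox* gave 6.46 ± 1.21 and *Bmp1*, the C-proteinase, 5.32 ± 1.16 against the sinusoids. In epithelial cells 3 of 35 were higher, near the 8.37% of all genes, led by *Mia2* at 9.82 ± 1.07, which helps export large cargo. There 8 were lower, against 4.05% of all genes, led by *Loxl2* at -4.11 ± 0.78, and without those plates 1 was higher and 2 were lower, beside 2.65% and 0.916% of all genes. Between cholangiocytes and hepatocytes 11 of 32 were higher, near the 28.6% of all genes, led by *P4ha3* at 8.88 ± 2.05, and 1 was lower against 8.67% of all genes, *Pcolce2* at -3.41 ± 1.34. With sums made per plate edgeR called 0 of 28 in either direction, with 9 higher at an unadjusted p under 0.05, beside 3.73% and 4.22% of all genes, and DESeq2, on the sums per pool, called 11 higher and 1 lower, beside 22.8% and 10.9%.

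Collagen receptors were read from a further list. Of its 10 genes 4 were higher and 1 lower in mesenchymal cells, where 9.47% and 2.33% of all genes were called. The endocytic receptor *Mrc2* gave 10.04 ± 0.62, the integrin chain *Itga11* 7.83 ± 0.97, the receptor kinase *Ddr2* 6.17 ± 0.74 and the integrin chain *Itga1* 2.91 ± 0.48, while the immune receptor *Lair1* was lower at -4.76 ± 0.87. Of the 10 receptors, 2 were higher in fibroblasts than in mural cells, *Itga11* (2.36 ± 0.43) and *Mrc2* (1.93 ± 0.39), and 1 was lower, *Itga1* (-2.72 ± 0.34), where 2.25% and 0.966% of all genes were called. With sums made per plate edgeR called 0 of them higher and 1 lower, with 3 each way at an unadjusted p under 0.05, beside 0.542% and 0.261% of all genes, and DESeq2 on the sums per pool called 2 and 3, beside 4.59% and 3.31%. *Itga1* was the 1 receptor of 10 called higher in stellate cells than in fibroblasts (2.97 ± 0.43), beside 0.492% of all genes. It was also the 1 called higher in endothelial cells than in the other classes (3.89 ± 0.48). There 2 receptors were lower, and 5.33% and 2.96% of all genes were called higher and lower. In cholangiocytes 3 of 9 receptors were higher than in hepatocytes, near the 28.6% of all genes and 1 of 6 with sums per plate beside 3.73%, namely *Ddr1* (10.63 ± 0.95), *Itga2* (7.38 ± 2.66) and *Itgb1* (3.39 ± 0.60).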

How the data were processed

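Raw counts per gene and cell were deposited by the authors for 3491 cells with class, sex and cluster labels. The processing notes name bcl2fastq, Bowtie, Bowtie2, Subread featureCounts and Seurat with GRCm38 and mm10, without role or order. Counting by strand is not given in the sources used here, so overlapping and antisense genes cannot be told apart. Reads carry no molecular tags, so intervals and floors cover counting error only.

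Counts were summed per class or cluster and sex pool (at least 5 cells, 3 for the finer clusters), after 92 spike-in rows were left out. The quasi-likelihood test of edgeR 4.0.16 (R 4.3.3; TMM, filterByExpr) was fitted on all genes with 1 mean per class or cluster and Benjamini-Hochberg adjustment. A gene was called when its adjusted p was below 0.05 and its change was 1 or more on the log2 scale, and each SE was the log2 fold change over the root of F. Groups of clusters were compared by their mean on the log scale. The finer clusters were compared apart from the others. Alternatives were DESeq2 1.42.0, RLE scaling, no filter, 10 cells per sum, sums per plate, cells thinned to 50000 counts, a block for the pool, 1 pool left out at a time, cells of mixed markers left out, m8 and m10 left out and e7 left out. Those on plates, single veins and contrasts without the mesenchymal class were added after seeing the data. Scripts were tested on simulated data. Python 3.11.15, scipy 1.17.1 and matplotlib 3.10.9 were used, with exon lengths from GENCODE vM21.

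The genes, lists and comparisons were chosen with earlier results of these data known. Every collagen is named, with full statistics for up to 10 called genes of largest change per comparison and their partner chains, and up to 5 called genes of the enzyme and receptor lists.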

Additional observations from a re-analysis of the deposited data

Results flagged for a closer look

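Some collagens moved one way in the male pool and the other way in the female pool. These differences rest on 1 pool per sex and were not tested. In mesenchymal against the other classes, *Col9a3* had a log2 fold change lower in the male than in the female pool by a difference of -3.22. For *Col20a1* the difference was -3.43 in the endothelial and 11.996 in the epithelial comparison, its female epithelial pool holding no counts. For *Col5a3* in the epithelial comparison it was 10.89, with 3.56 CPM in male cells against 0 CPM in female ones. *Col28a1* in stellate cells against fibroblasts gave 11.87, from 17 cells in the whole table.

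*Col16a1* in capsular against other stellate cells gave 2.34, *Col12a1* in arterial against other mural cells gave -3.31, *Col4a3* in large vein against sinusoidal endothelium gave -7.34, and *Col13a1* in central against portal vein gave 5.58, the male and female pools of e2 holding 2.36 and 136 CPM of it. Outside the 40 genes, *Col11a1* held 290 counts in 18 cells and *Col10a1* held 274 counts in 12 cells, with 58.3% and 31.4% of them in 1 cell.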

How the results depend on the processing

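Of 737 values of single called collagens recomputed with a test, 663 kept direction and side of the threshold and 73 kept the direction without passing. Of 163 recomputed with 1 pool left out, which has no test, 125 stayed within the spread and 37 moved by more. One in each set reversed: *Col1a2* in the epithelial comparison with the mesenchymal class taken out of the contrast (1.49) and *Col28a1* in stellate cells without the male pool (-0.96, against 10.91 without the female pool). The cause of each change below was not tested. Counts of called collagens moved as follows. The share of all genes called in the same setting follows each count. In the endothelial comparison (13, 8.28%) there were 20 (18.7%) by DESeq2, 25 (12.2%) with no filter, 20 (21.9%) with sums per plate and 3 (1.63%) without the plates that held mesenchymal cells. In the epithelial one (7, 12.4%) there were 20 (23.3%), 20 (14.6%), 13 (24%) and 4 (3.56%) under the same settings. Fibroblasts against mural cells (15, 3.21%) had 5 (0.803%) with sums per plate. Stellate cells against fibroblasts (3, 0.715%) had 8 (2.75%) by DESeq2, 7 (2.62%) with no filter, 5 (1.15%) with 10 cells per sum and 5 (2.07%) with sums per plate. For m4 (0, 0.0626%) there was 1 (1.69%) by DESeq2 and 2 (0.71%) with no filter. For m9 (0, 0.286%) there were 4 (2.65%) by DESeq2, 1 (2.28%) with no filter, 1 (0.593%) with 10 cells per sum and 2 (0.425%) with the pool as a replicate block. Capsular against other stellate cells (0, 0.0124%) had 6 (1.72%) by DESeq2, 1 (0.121%) with no filter and 2 (0.173%) with sums per plate. Vein against sinusoid (1, 0.961%) had 2 (3.72%) by DESeq2, 2 (1.84%) with no filter, 2 (1.63%) with thinned cells and 2 (2.92%) with sums per plate. Central against portal vein (0, 0.0764%) had 4 (1.68%) by DESeq2, 1 (0.243%) with no filter, 1 (0.244%) with 10 cells per sum, 1 (0.207%) with thinned cells and 3 (1.24%) with sums per plate. Cholangiocytes against hepatocytes (15, 37.3%) had 1 (7.96%) with sums per plate.

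With 1 pool left out no residual degrees of freedom remain, and the called collagens that kept their direction and a change of 1 or more on the log2 scale numbered 26 to 26 for mesenchymal, 13 to 13 for endothelial, 7 to 7 for epithelial, 12 to 15 for fibroblasts against mural cells, 2 to 3 for stellate cells, 9 to 9 for arterial cells and 1 to 1 for veins, 15 for cholangiocytes, where the male pool could not be left out, and 0 to 0 elsewhere. The median share of mesenchymal cells with a count was 25.4% (20.4% to 49.9% with 1 pool) and the collagen share of mesenchymal counts was 1.58% to 1.82%. The labels do not name the mice, so the replicate number is the sex. The deviations of clusters sharing a number from their cluster means correlated at 0.09 to 0.11 between classes, 0.00 to 0.16 between mesenchymal and -0.02 to 0.10 between endothelial clusters, which is not every pair above 0.1, so the numbers were not taken to pair the samples. With the pool as a replicate block the epithelial comparison had 10 calls (*Col1a1*, *Col6a2* and *Col13a1* added as lower), fibroblasts against mural cells 14 (*Col6a3* added, *Col5a3* and *Col6a5* lost), stellate cells 2 (*Col28a1* lost), arterial cells 10 (*Col19a1* added) and m9 2 (*Col4a1* and *Col6a3*, lower). The count was the same in 6 comparisons, and the block could not be fitted for cholangiocytes. *Col9a2*, *Col24a1*, *Col28a1*, *Col17a1* and *Col6a4* rest on few cells, and the female epithelial pool on 39 cells.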
